A study of Mus musculus with 4 samples.

Results

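MicroRNA precursor genes encode the primary transcripts whose hairpins are cut into mature microRNAs. They were taken here as the genes with a probe set listed under exactly 1 gene symbol that begins with Mir and a digit or with Mirlet7. The annotation held 511 such probe sets of 483 genes, and each gene was read from its brightest probe set by the mean of the 4 arrays. The 168 genes whose mean log2 signal lay above 2.91, the 40th percentile of the means of all 41345 probe sets, were kept. They made up 34.8% of the 483 genes, and they were fitted together with every other gene above the same limit, 14652 in all. Just inside the limit were Mir1951 at 2.95, Mir598 at 2.94, Mir20a at 2.93 and Mir709 at 2.91. Just outside it were Mir344d-2, Mir130b and Mir3085 at 2.90 and Mir219a-2 at 2.89. Mir9-3hg, 1 of the 168, is a host transcript whose symbol fits the same pattern.

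The sulforaphane group consisted of 2 arrays of dendritic cells grown from the bone marrow of C57BL/6 mice, harvested on culture day 7, kept for 2 h with 0.3 µM sulforaphane in DMSO and then given 100 ng/ml LPS for 1 h. The DMSO group consisted of 2 arrays of the same kind of cells that received DMSO alone for 2 h and the same LPS, so that every sample had been stimulated. Sulforaphane, an isothiocyanate found in broccoli, is known to activate NRF2, and LPS is the bacterial ligand of TLR4. Whether the 2 samples of a group were separate mice or cultures is not given in the labels, and the p-values therefore rest on a spread that may be technical.

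A primary microRNA transcript is trimmed in the nucleus by Drosha and Dgcr8 to a hairpin, which is exported by Xpo5 and cut by Dicer1, and 1 strand of the product is loaded into an Argonaute protein. The loaded strand recognises messages mainly through its seed and lowers their translation and stability. In myeloid cells, miR-155 and the miR-146 family are known as microRNAs induced through TLR signalling, and miR-142 and miR-223 as microRNAs of the haematopoietic lineage. The arrays read RNA of the precursor locus, in which hairpin, primary transcript and overlapping RNA cannot be separated, and mature microRNA was not measured on its own.

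The mature products below belong to the loci on which the results turn. They are RefSeq sequences of build GRCm38.p6, written 5′ to 3′ with the seed, bases 2 to 8, in capitals. A mature sequence was matched for 137 of the 168 genes. The first set holds the LPS-linked and haematopoietic microRNAs, from loci at chr19:46342790-46342811 on the plus strand (miR-146b-5p), chr11:43374435-43374456 on the minus strand (miR-146a-5p), chr16:84714143-84714165 on the plus strand (miR-155-5p) and chr11:87756867-87756887 and chr11:87756903-87756925 on the plus strand (miR-142a-5p and miR-142a-3p).
miR-146b-5p: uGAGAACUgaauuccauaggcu
miR-146a-5p: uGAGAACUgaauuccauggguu
miR-155-5p: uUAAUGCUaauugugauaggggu
miR-142a-5p: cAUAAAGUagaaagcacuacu
miR-142a-3p: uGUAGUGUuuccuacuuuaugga
The miR-146a-5p and miR-146b-5p sequences share their seed and differ at 2 of 22 bases, G18A and U21C, where the miR-146a-5p base stands first and positions are counted from the 5′ end.

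The second set holds products of a duplicated cluster. Its copy on chromosome 8 holds Mir23a, Mir27a and Mir24-2, and its copy on chromosome 13 holds Mir23b, Mir27b and Mir24-1. The miR-23a-3p, miR-27a-3p and miR-24-3p sequences were read at chr8:84208563-84208583, chr8:84208727-84208747 and chr8:84208875-84208896 on the plus strand. The miR-27b-3p sequence lies at chr13:63300760-63300780 on the plus strand, and miR-24-3p is encoded a second time at chr13:63301251-63301272 with 0 differences.
miR-23a-3p: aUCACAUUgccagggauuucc
miR-27a-3p: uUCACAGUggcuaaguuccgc
miR-27b-3p: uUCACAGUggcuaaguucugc
miR-24-3p: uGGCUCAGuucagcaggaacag
The miR-27a-3p and miR-27b-3p sequences differ at 1 base, C19U, with the miR-27a-3p base first.

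The third set holds seeds carried by genes whose differences had opposite signs. The miR-181b-5p sequence is encoded at chr1:137966650-137966673 (Mir181b-1) and chr2:38853845-38853868 (Mir181b-2), both on the plus strand. The miR-221-3p and miR-222-3p sequences lie at chrX:19146307-19146329 and chrX:19146901-19146923, and miR-15a-5p and miR-16-5p at chr14:61632075-61632096 and chr14:61631936-61631957, all on the minus strand.
miR-181b-5p: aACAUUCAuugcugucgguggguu
miR-221-3p: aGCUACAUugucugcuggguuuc
miR-222-3p: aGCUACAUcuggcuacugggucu
miR-15a-5p: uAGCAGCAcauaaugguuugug
miR-16-5p: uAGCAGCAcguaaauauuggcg

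The RNA came from cells that carried dendritic cell and myeloid markers. Itgax, which encodes CD11c, lay between 11.26 and 11.33 and the MHC class II gene H2-Ab1 between 11.37 and 11.81 on the 4 arrays, while Cd3e of T cells lay between 2.85 and 3.24. Granulocyte, macrophage and basophil genes were also present (Ltf 11.20, Csf1r 11.23, Cpa3 9.98, means of 4 arrays), and the labels used here give no sorting step. The 14 dendritic cell markers tested summed to 120.6 and 120.9 log2 units in the sulforaphane arrays, against 122.6 and 124.2 in the DMSO arrays, and 7 lay above 0 and 7 below. The 7 below 0, Irf4 (difference -0.87) among them, were lower without overlap, where the share lower without overlap over all genes was 19.5%. H2-Ab1 (0.26), H2-Aa (0.16) and Itgax (0.07) were higher without overlap, where the share over all genes was 24.0%. The 17 macrophage and monocyte markers summed to 144.0 and 144.6 in the sulforaphane arrays, against 146.6 and 148.1 in the DMSO arrays. Of these, 4 lay above 0 and 13 below, with 0 higher and 7 lower without overlap. Of the 9 mast cell and basophil markers, 1 lay above 0 and 8 below, with 0 higher and 4 lower without overlap. Of the 13 granulocyte markers, 9 lay above 0 and 4 below, with 1 higher and 1 lower without overlap. Sums of the 13 granulocyte markers overlapped (118.3 to 120.2 after sulforaphane and 117.4 to 121.0 after DMSO), those of the 9 mast cell and basophil markers did not (59.2 to 60.9 after sulforaphane and 61.4 to 61.8 after DMSO), and those of the 5 lymphoid markers overlapped (15.86 to 17.55 after sulforaphane and 17.25 to 17.96 after DMSO). The 3 stromal markers tested, all collagen genes with means of 3.52 or less, summed to 9.72 to 9.90 after sulforaphane and 9.25 to 9.71 after DMSO. DMSO replicate 1 stood apart by an interquartile range of 3.41, against 3.61 to 3.62 on the other arrays. The part of these markers in the microRNA values was not tested, and values without that array are given for some genes only.

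After sulforaphane, the miR-146b and miR-142 genes gave lower signal than after DMSO and the miR-23b gene gave higher signal, but no microRNA gene passed the test over all genes. Of the 168 genes, 0 had an adjusted p under 0.05 by limma with Benjamini-Hochberg adjustment over 14652 genes, where the share over all genes was 0.13% (19 genes). The lowest adjusted p was 0.0822. At an unadjusted p under 0.05 there were 24 microRNA genes, 14.3%, beside 13.0% of all genes, and 10 of them were higher and 14 lower after sulforaphane. Among genes with both group means above the limit, the same level was reached by 20 of 159 microRNA genes, 12.6%, beside 12.7% of all such genes. Sulforaphane and DMSO arrays lay wholly apart for 59 microRNA genes, 35.1%, beside 43.6% of all genes. That split into 25 higher, 14.9% beside 24.0%, and 34 lower, 20.2% beside 19.5%. Over all signals, the share at an unadjusted p under 0.05 was near that of all genes, and the share without overlap was below it. Neither held at every signal. For means up to 4, 14.7% of microRNA genes had an unadjusted p under 0.05 by limma, beside 9.59% of all genes in that range. For means of 4 to 6 it was 12.2% beside 19.1%, and above 6 it was 17.6% beside 12.8%. The shares without overlap in these ranges were 32.4% beside 35.0%, 34.7% beside 45.6% and 52.9% beside 47.6%. These shares are not read as a result. With a mean limit at the 60th percentile limma called 2 genes, Mir146b and Mir23b, with an intensity trend Mir142 and Mir146b, and after a second quantile normalization Mir146b alone.

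Differences were spread around 0. The median over the 168 genes was -0.026 on the log2 scale (sulforaphane minus DMSO), with 79 genes above 0 and 89 below, and the quartiles were -0.22 and 0.19. Over all 14652 genes the median was 0.018 and the quartiles -0.11 and 0.14. Without sulforaphane replicate 1 the microRNA median was 0.012 and without DMSO replicate 2 it was 0.0057, so its sign rests on those arrays.

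**Figure D1:**
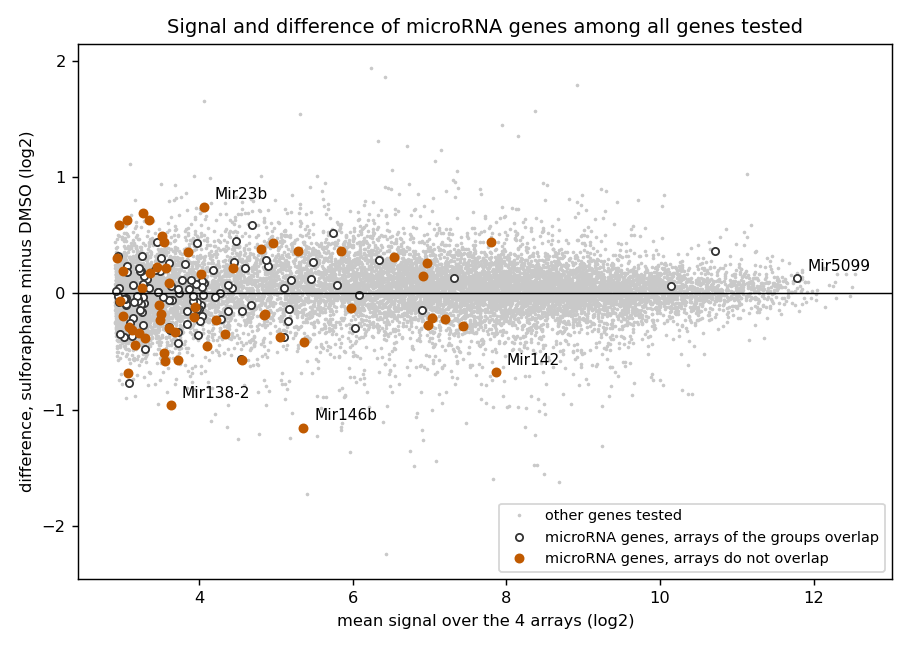
Mean log2 signal over the 4 arrays (horizontal) against the difference, sulforaphane minus DMSO, in log2 (vertical) for the 168 microRNA genes and all other genes tested. Filled circles mark the 59 microRNA genes whose sulforaphane arrays lie wholly above or below the DMSO arrays, and most microRNA genes sit at the dim end, with Mir146b the lowest at -1.16 and Mir23b the highest at 0.75.

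Most of the kept genes were dim. Their mean signals had a median of 3.74 and quartiles of 3.26 and 4.56, and 15 of them, 8.93%, lay above the median of all genes tested, 6.31. A mean above 4 was reached by 66 genes, above 6 by 17 and above 10 by 3. The brightest probe sets were those of Mir5099 (11.78), Mir692-1 (10.71) and Mir449b (10.14), followed by Mir142 (7.86), Mir5125 (7.80), Mir5123 (7.43), Mir1938 (7.32), Mir27a (7.19), Mir505 (7.02) and Mir23a (6.98). Brightness depends on the probes of each set and does not order these genes by abundance. Numbers of 1000 and above, given to microRNAs catalogued late, were carried by 59 of the genes.

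The spread between replicates was wide for microRNA genes. The median SD within the sulforaphane group was 0.145 and within the DMSO group 0.212 (n = 2 each), where all genes had 0.083 in the sulforaphane group and 0.109 in the DMSO group. Part of the gap remained among genes of like signal, though little of it in the sulforaphane group for means of 4 to 6. There the median SD of 49 microRNA genes was 0.115 in the sulforaphane group and 0.293 in the DMSO group. All 2539 genes with such means had 0.101 in the sulforaphane group and 0.139 in the DMSO group. For means between the limit and 4 the median SD of 102 microRNA genes was 0.1697 in the sulforaphane group and 0.219 in the DMSO group, where all 4294 genes in that range had 0.118 in the sulforaphane group and 0.128 in the DMSO group. For means above 6 it was 0.0997 in the sulforaphane group and 0.139 in the DMSO group for 17 microRNA genes, and 0.065 in the sulforaphane group and 0.093 in the DMSO group for all 7819 genes. DMSO replicate 1 held the lowest of the 4 values for 56 microRNA genes and the highest for 52, more often than any other array in both cases. That array also stood apart over all 14652 genes. There the differences of the sulforaphane arrays from DMSO replicate 1 had SDs of 0.317 and 0.311, and those from DMSO replicate 2 had 0.266 and 0.275.

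Among the microRNAs linked to LPS signalling, Mir146b had the largest difference of all 168 genes. Its signal was 4.53 and 5.02 in the sulforaphane arrays, against 5.86 and 6.01 in the DMSO arrays. Both sulforaphane arrays lay below both DMSO arrays, by more than the spread within either group. The difference was -1.16 ± 0.18 (moderated SE, 95% interval -1.60 to -0.71), 2.23-fold lower, with an adjusted p of 0.0822 by limma. Leaving out 1 array at a time kept it between -1.40 and -0.91. In these bulk samples, fewer cells that express a gene and less RNA per cell cannot be told apart. The hairpin lies at chr19:46342762-46342870 on the plus strand, inside the predicted locus Gm36493, whose strand is not in the tables used here, and the nearest gene known on that strand, Fbxl15, had a difference of -0.20 ± 0.15. The hairpin is shown because it is the precursor behind the largest difference, with the mature miR-146b-5p and miR-146b-3p arms in capitals.
Mir146b hairpin: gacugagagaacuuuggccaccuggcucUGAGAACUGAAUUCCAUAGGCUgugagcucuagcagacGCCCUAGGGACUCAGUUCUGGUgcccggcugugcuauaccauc

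Mir146, the older symbol of the miR-146a gene, was not among the kept genes. Its probe set had a mean of 2.69, below the limit, with 2.75 and 2.39 in the sulforaphane arrays, against 2.51 and 3.10 in the DMSO arrays. The groups overlapped. In a fit without a limit on the mean the difference was -0.24, with an adjusted p of 0.797 by limma, and without DMSO replicate 2 it was 0.059.

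Mir155, the precursor of miR-155, was listed only together with its host transcript Mir155hg, the gene also called Bic, and so fell outside the rule. That probe set gave 6.79 and 6.94 in the sulforaphane arrays, against 7.44 and 7.08 in the DMSO arrays. Both sulforaphane arrays lay below both DMSO arrays, though by less than the gap between the DMSO arrays. The difference was -0.39 ± 0.17 (95% interval -0.86 to 0.067), with an adjusted p of 0.597 in a limma fit of 24807 probe sets, in which 0 passed and 2231, 8.99%, had an unadjusted p under 0.05. Without DMSO replicate 1 the difference was -0.21, and without DMSO replicate 2 it was -0.57.

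Of 31 names on a list of LPS-linked microRNAs, 21 had a probe set under exactly 1 symbol, and 11 of these were kept. Of the 11, 0 passed the adjusted test by limma. At an unadjusted p under 0.05 there were 2 (Mir146b and Mir20a), a level that 13.0% of all genes reached. The median difference of the 11 was -0.16, beside 0.018 for all genes, with 4 above 0 and 7 below. Mir221, which with Mir222 forms a cluster on the X chromosome, had 4.93 and 4.80 in the sulforaphane arrays, against 4.98 and 5.49 in the DMSO arrays, a difference of -0.37 ± 0.18 that ran from -0.63 (leaving out DMSO replicate 1) to -0.12 (leaving out DMSO replicate 2). Mir222 gave 4.77 and 4.65 in the sulforaphane arrays, against 4.17 and 4.81 in the DMSO arrays, with overlap, so the neighbours did not share a sign. Mir27a (-0.22 ± 0.11) and Mir187 (-0.17 ± 0.12) were lower in both sulforaphane arrays than in both DMSO arrays by small steps. Mir20a, the least bright of the 11, had 3.02 and 3.15 in the sulforaphane arrays, against 2.87 and 2.69 in the DMSO arrays, and with a DMSO mean of 2.78 it was above the limit only through the sulforaphane arrays. Mir99b, Mirlet7e, Mir9-1, Mir9-3 and Mir212 overlapped between the groups, with differences from -0.32 (Mir212) to 0.44 (Mir99b). Without DMSO replicate 1 the difference of Mir212 was 0.085, that of Mir222 -0.100 and that of Mir99b 0.097.

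**Figure D2:**
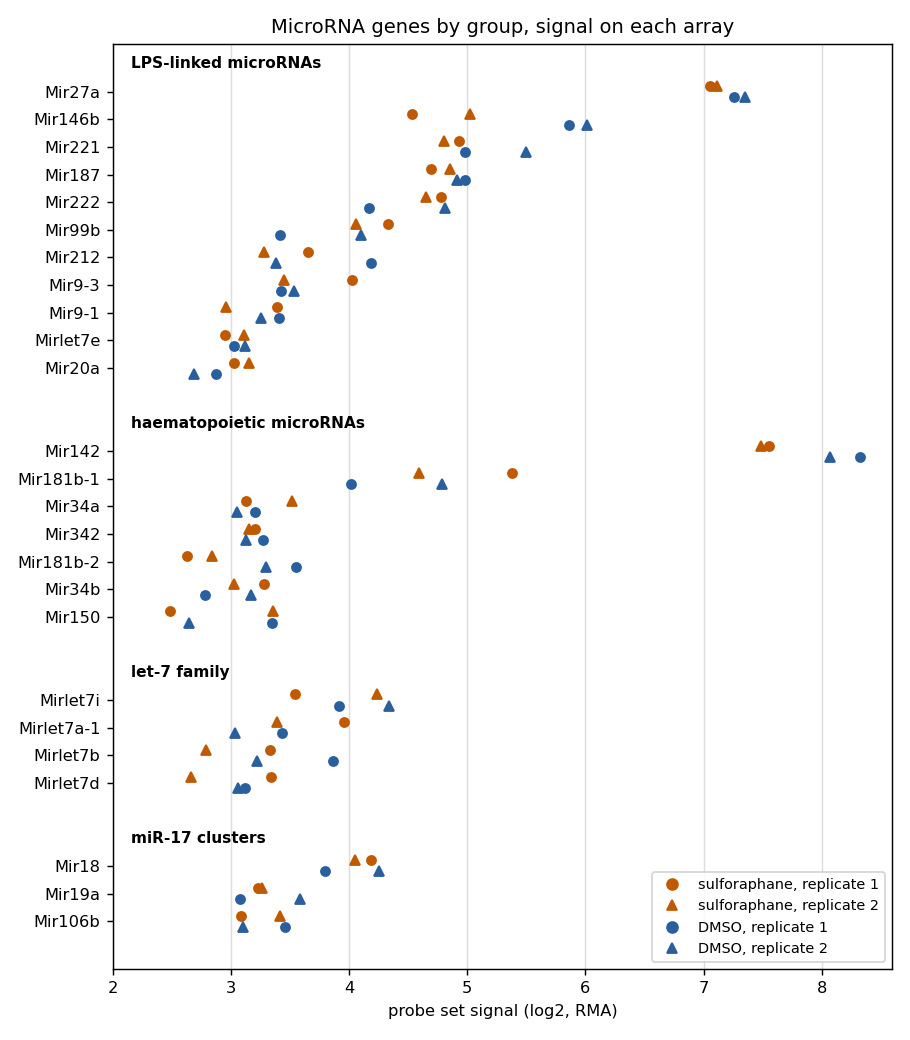
Log2 signal on each array (horizontal) for the kept genes of 4 lists, with sulforaphane arrays drawn above DMSO arrays in each row; circles are replicate 1 and triangles replicate 2, and a gene on several lists is drawn under the first. Mir146b (4.53 and 5.02 in the sulforaphane arrays, against 5.86 and 6.01 in the DMSO arrays) and Mir142 (7.56 and 7.49 in the sulforaphane arrays, against 8.32 and 8.07 in the DMSO arrays) show the clearest separation, and most other rows overlap.

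Mir142, whose products mark cells of the blood lineage, was lower after sulforaphane. It had 7.56 and 7.49 in the sulforaphane arrays, against 8.32 and 8.07 in the DMSO arrays. Both sulforaphane arrays lay below both DMSO arrays, by more than the spread within either group, and the difference was -0.67 ± 0.13 (95% interval -0.99 to -0.36), with an adjusted p of 0.125 by limma. The range without 1 array was -0.80 to -0.55. Of the 17 names on the list of haematopoietic microRNAs, 12 had a probe set under exactly 1 symbol, and 7 of these were kept. Of the 7, 3 were above 0 and 4 below, with 0 past the adjusted test by limma. At an unadjusted p under 0.05 there were 2 (Mir142 and Mir181b-2), where the share over all genes was 13.0%. The Mir142 hairpin, at chr11:87756864-87756927 on the plus strand with both mature arms in capitals, lay in no annotated gene of its strand.
Mir142 hairpin: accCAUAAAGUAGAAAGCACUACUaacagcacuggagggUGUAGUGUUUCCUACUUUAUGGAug

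The miR-181b genes, which encode the same mature miR-181b-5p at separate loci, had differences of opposite sign. Mir181b-2 had 2.63 and 2.84 in the sulforaphane arrays, against 3.55 and 3.29 in the DMSO arrays, a difference of -0.69 ± 0.14 without overlap (adjusted p 0.148, limma). Its sulforaphane mean of 2.73 lay below the limit, so it was kept only through the DMSO arrays, where it was high. Mir181b-1 had 5.38 and 4.59 in the sulforaphane arrays, against 4.01 and 4.78 in the DMSO arrays, a difference of 0.59 ± 0.33 with overlap. Leaving out sulforaphane replicate 1 gave 0.19 and leaving out DMSO replicate 1 gave 0.20, while leaving out either second replicate gave 0.98 (sulforaphane) or 0.97 (DMSO). Mir150 (-0.07), Mir342 (-0.02), Mir34a (0.19) and Mir34b (0.18) overlapped, and each changed sign without 1 array. The let-7 family, known for rising as cells differentiate, had 5 kept genes of 12 listed. Its differences ran from -0.48 (Mirlet7b) to 0.44 (Mirlet7a-1), 1 above 0 and 4 below, and every let-7 gene overlapped between the groups. Both extremes moved when 1 array was dropped: Mirlet7b was at -0.80 once DMSO replicate 2 was dropped and at -0.16 once DMSO replicate 1 was, and Mirlet7a-1 was at 0.16 once sulforaphane replicate 1 was dropped and at 0.73 once sulforaphane replicate 2 was. From the miR-17 clusters, which are linked to proliferation, Mir18 (0.09), Mir19a (-0.08) and Mir106b (-0.03) overlapped, and Mir20a (0.31 ± 0.12), named above, did not.

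The chromosome 13 copy of the miR-23, miR-27 and miR-24 cluster gave higher signal after sulforaphane at the brightest probe set of each of its 3 loci. Mir23b had 4.45 and 4.41 in the sulforaphane arrays, against 3.58 and 3.79 in the DMSO arrays, and the difference was 0.75 ± 0.12 (95% interval 0.45 to 1.04; adjusted p 0.0876, limma). Leaving out 1 array kept it between 0.64 and 0.85. Mir27b and Mir24-1 share their probe sets with other symbols and are therefore not among the 168 genes. They were looked up after Mir23b had been seen.

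The probe set of Mir27b and Aopep had 4.75 and 4.58 in the sulforaphane arrays, against 3.85 and 3.92 in the DMSO arrays, a difference of 0.78 ± 0.13. The brighter probe set of Mir24-1 and Mir3074-1 had 5.35 and 5.46 in the sulforaphane arrays, against 4.21 and 3.93 in the DMSO arrays, a difference of 1.33 ± 0.15, 2.52-fold. A second probe set of the same symbols, with a mean of 2.53 below the limit, had 3.20 and 2.44 in the sulforaphane arrays, against 2.00 and 2.49 in the DMSO arrays, a difference of 0.58 ± 0.31 with overlap. In the Mir27b probe set and the brighter Mir24-1 probe set, the sulforaphane arrays lay well above the DMSO arrays. The adjusted p values in the fit of every probe set were 0.366 and 0.358 by limma. Aopep, the aminopeptidase gene that holds the cluster on the same strand, had 5.55 and 5.69 in the sulforaphane arrays, against 5.33 and 5.71 in the DMSO arrays at its own probe set. Those arrays overlapped, with a difference of 0.10 ± 0.16.

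The chromosome 8 copy did not show the same direction at all its loci. Mir23a had 6.93 and 6.76 in the sulforaphane arrays, against 7.18 and 7.05 in the DMSO arrays, a difference of -0.27 ± 0.12. Mir27a had 7.06 and 7.11 in the sulforaphane arrays, against 7.25 and 7.35 in the DMSO arrays. Both were lower without overlap, with adjusted p values of 0.428 and 0.475 by limma. The brighter probe set of Mir24-2 and Mir3074-2 had 3.84 and 3.86 in the sulforaphane arrays, against 3.15 and 3.89 in the DMSO arrays. The DMSO arrays thus lay on both sides. A second probe set of the same symbols had a mean of 2.45, below the limit. It had 2.45 and 2.37 in the sulforaphane arrays, against 2.75 and 2.21 in the DMSO arrays. Its difference was -0.07 ± 0.21, with overlap. The nearest gene on that strand, 4930432K21Rik, had a difference of -0.18 ± 0.16 with overlap. The near-identical mature stretches of the paralogues could share probe signal, and whether they did was not tested.

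**Figure D3:**
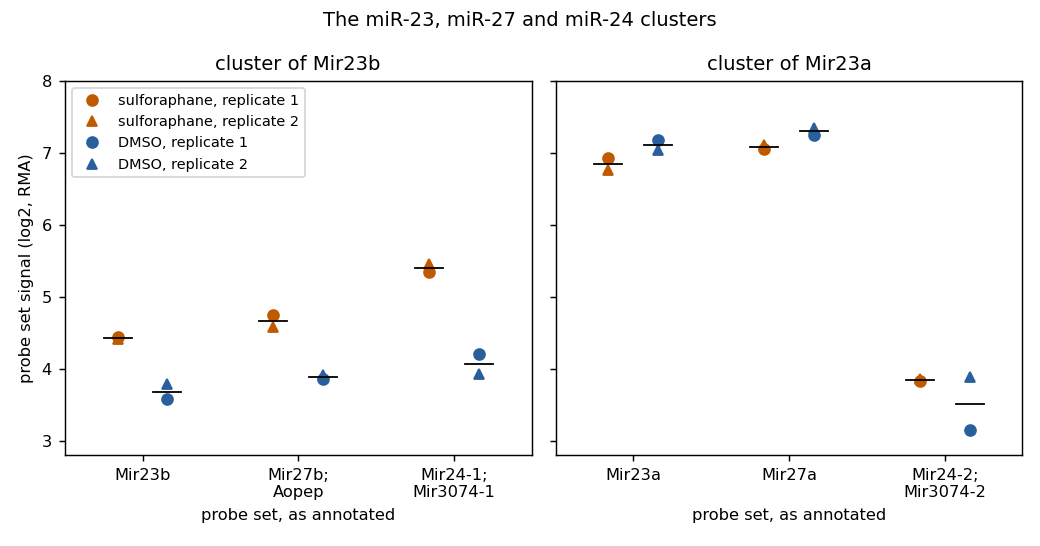
Log2 signal on each array (vertical) for the brightest probe set of each locus in the chromosome 13 and chromosome 8 copies of the cluster. Sulforaphane arrays are left of DMSO arrays, with a bar at each group mean. The 3 chromosome 13 probe sets are higher after sulforaphane (differences of 0.75, 0.78 and 1.33), and Mir23a and Mir27a are slightly lower (-0.27 and -0.22).

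A set of 9 genes differed by at least 1.5-fold without overlap. The 5 that were higher, 2.98% beside 1.32% of all genes, were Mir23b, Mir194-1, Mir1945, Mir335 and Mir3060, and the 4 that were lower, 2.38% beside 1.49%, were Mir146b, Mir138-2, Mir181b-2 and Mir142. Mir335 and Mir3060 had a DMSO mean below the limit and Mir181b-2 a sulforaphane mean below it, so these 3 were kept only through the group where they were high. Among the 159 microRNA genes with both group means above the limit, 3 were higher (1.89% beside 1.33% of all such genes) and 3 were lower (1.89% beside 1.48%), so these shares rest on few genes and are not read as a result. Only 3 of the 9 (Mir146b, Mir142 and Mir23b) had a mean above 4. The counts depended on which arrays were used: without DMSO replicate 2 they were 16 higher and 16 lower, without sulforaphane replicate 2 they were 10 and 7, without sulforaphane replicate 1 they were 7 and 9, and without DMSO replicate 1 they were 4 and 8. With 1 array in a group, non-overlap is met more easily.

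Mir194-1, a precursor of the epithelial microRNA miR-194, had 3.63 and 3.59 in the sulforaphane arrays, against 2.71 and 3.12 in the DMSO arrays, a difference of 0.69 ± 0.16. Mir335, which lies inside the imprinted gene Mest, had 3.19 and 3.55 in the sulforaphane arrays, against 2.82 and 2.66 in the DMSO arrays, a difference of 0.63 ± 0.16. These values lie near 3.23, the median mean of all probe sets, at the dim end of the range. Mir1945 (0.63 ± 0.15) and Mir3060 (0.59 ± 0.17) were equally dim, with means of 3.35 and 2.96, and Mir3060 was at 0.37 without DMSO replicate 1. Mir138-2 rested on 1 array: it had 3.10 and 3.20 in the sulforaphane arrays, against 4.69 and 3.53 in the DMSO arrays, and its difference of -0.96 ± 0.35 was -0.38 without DMSO replicate 1.

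Further genes at an unadjusted p under 0.05 had smaller differences. Mir5125, inside the splicing factor gene Srrm2, had 7.95 and 8.08 in the sulforaphane arrays, against 7.54 and 7.61 in the DMSO arrays, a difference of 0.45 ± 0.11. Mir185 had 5.27 and 5.10 in the sulforaphane arrays, against 4.77 and 4.73 in the DMSO arrays, a difference of 0.43 ± 0.12. The arrays of both genes stood apart by more than the gap within either group, and their adjusted p values were 0.196 and 0.215 by limma. Mir877 (0.45 ± 0.12) was also higher, and Mir328 (-0.58 ± 0.12), Mir3109 (-0.57 ± 0.13), Mir1190 (-0.57 ± 0.15), Mir574 (-0.45 ± 0.11) and Mir3092 (-0.44 ± 0.13) were lower. Of the 24 genes at that level, 15 had a mean of 4 or less.

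**Figure D4:**
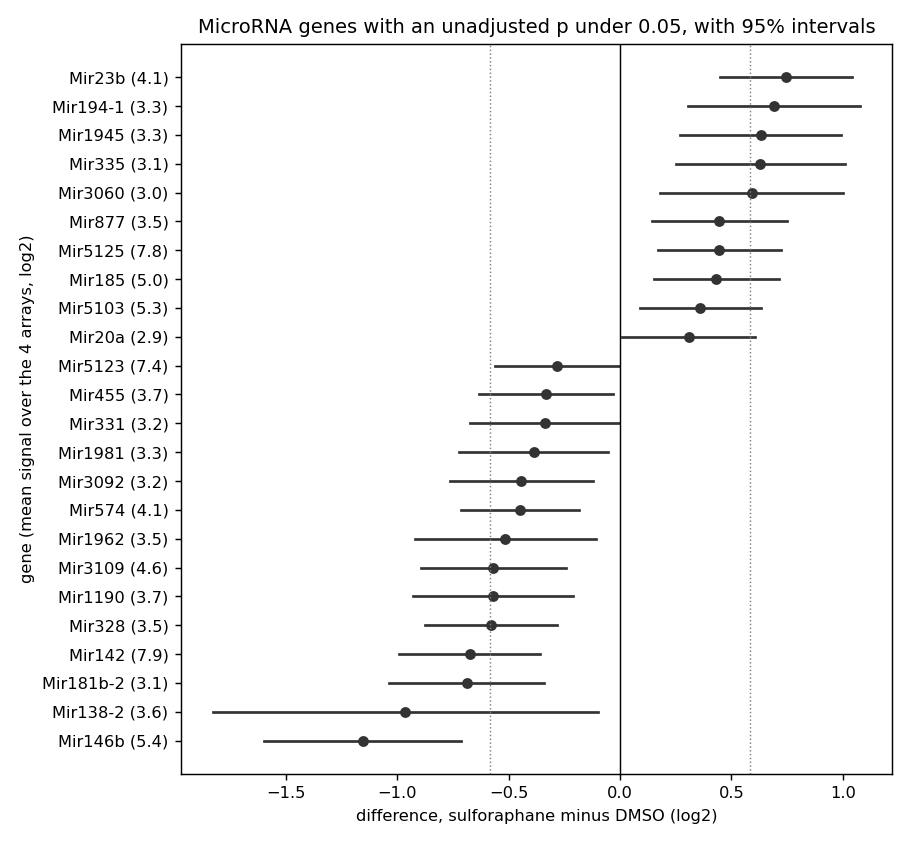
Difference, sulforaphane minus DMSO, in log2 (horizontal) with its 95% interval for the 24 microRNA genes with an unadjusted p under 0.05, mean signal in brackets. Dotted lines mark 1.5-fold; Mir146b (-1.16) and Mir23b (0.75) are the extremes, and none of these genes passed the adjusted test.

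Genes that share a seed did not always share a sign. Among the 137 genes with a mature sequence, 16 seeds were shared by 30 genes. Since both arms of a hairpin can be shared, these seeds name 12 separate groups of genes, and 9 of the 12 had members on both sides of 0. Most of the 12 are pairs, and the count was not tested and is not read as a result. Some members, among them Mir106b, Mir222, Mir9-1 and Mir9-3, changed sign when 1 array was left out. The seed of miR-194 was carried by Mir194-1 (0.69) and Mir194-2 (-0.37, with the DMSO arrays at 3.89 and 2.72 on both sides of the sulforaphane arrays). The seed of miR-15 and miR-16 was carried by Mir15a (0.26 ± 0.11) and Mir16-1 (-0.13 ± 0.21), neighbours on chromosome 14 inside Dleu2, a long noncoding RNA. Without sulforaphane replicate 1 Mir16-1 was at 0.096, and without DMSO replicate 1 at 0.077. Genes within 10000 bases of each other on a strand formed 14 clusters of 34 genes. Among these clusters is Mir9-3 with its own host transcript Mir9-3hg, a pair that is also counted with the surrounding genes below. Mir425 (0.36 ± 0.16) and Mir191 (0.38 ± 0.17), singled out after their values were seen, were both higher without overlap, but a second, dimmer probe set of Mir191 gave -0.28.

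The differences of microRNA genes and of the genes around them matched in sign little more often than not. On their own strand, 85 of the 168 lay inside another gene, and for 69 of them that gene was also tested. The signs matched in 38 of the 69 pairs, 55.1%. In 8 pairs the groups were apart in the same direction at both, and in 5 pairs they were apart in opposite directions. Taken singly, 35.1% of microRNA genes and 43.6% of all genes were apart, and the pair counts were not tested. The 69 pairs held 65 different surrounding genes. Mir3109 (-0.57) lies in Anxa2, the annexin A2 gene, which had 10.38 and 10.35 in the sulforaphane arrays, against 10.66 and 10.51 in the DMSO arrays, a difference of -0.23 ± 0.11. Mir185 (0.43) lies in Tango2 (0.16 ± 0.12). Mir574 (-0.45) and Mir138-2 (-0.96) lie in Fam114a1 (0.23 ± 0.15) and in the nucleoporin gene Nup93 (0.28 ± 0.14), whose signs were opposite to theirs. Mir5125 (0.45) lies in Srrm2 (-0.01 ± 0.11), and Mir425 and Mir191 lie in Dalrd3 (-0.09 ± 0.12). Dleu2 had 6.77 and 6.32 in the sulforaphane arrays, against 5.51 and 6.47 in the DMSO arrays. Its difference of 0.55 ± 0.33, with overlap, rested on the low value of DMSO replicate 1.

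**Figure D5:**
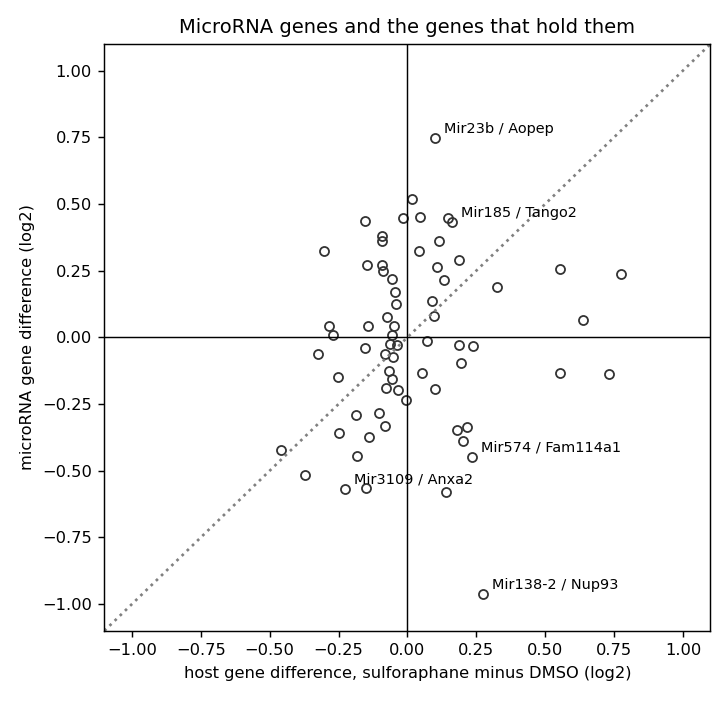
Difference of the surrounding gene (horizontal) against that of the microRNA gene (vertical), both sulforaphane minus DMSO in log2, for the 69 pairs on the same strand in which both were tested. The dotted line marks equal differences; Mir23b (0.75, Aopep 0.10) and Mir138-2 (-0.96, Nup93 0.28) lie far from it.

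The genes that process and load microRNAs were mostly measured well above the dim end, and none passed the adjusted test. Of 38 names listed, 29 were tested, and 0 had an adjusted p under 0.05 by limma, beside 3 at an unadjusted p under 0.05, a level that 13.0% of all genes reached. The median difference was 0.030, with 17 above 0 and 12 below. The nuclease genes Drosha (0.06 ± 0.13) and Dicer1 (0.04 ± 0.10), the export gene Xpo5 (0.10 ± 0.14) and the Argonaute gene Ago2 (-0.08 ± 0.12) were close to 0. Tnrc6a encodes a GW182 scaffold of the silencing complex. It had 8.68 and 8.75 in the sulforaphane arrays, against 7.78 and 8.34 in the DMSO arrays. The difference was 0.65 ± 0.19 (adjusted p 0.258, limma). Its sulforaphane arrays lay above its DMSO arrays by less than the gap between the DMSO arrays, of which replicate 1 was the lower. Its relative Tnrc6c was at 0.29 ± 0.12. Dgcr8 shared a probe set with Mir1306 and Tnrc6b shared one with Mir5113, and neither was among the 29. Those probe sets were at 0.25 ± 0.11 and 0.22 ± 0.11. Both were higher without overlap, as were 24.0% of all genes tested. Their adjusted p values in the fit of every probe set were 0.607 and 0.642 by limma. Zc3h12a, the gene of the ribonuclease Regnase-1, which can cut precursor hairpins as well as cytokine messages, had 9.03 and 8.98 in the sulforaphane arrays, against 9.50 and 9.33 in the DMSO arrays, a difference of -0.41 ± 0.12 (adjusted p 0.233, limma).

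Known targets of miR-155 and miR-146 were read from lists of textbook targets. For miR-155, 16 of 18 names were tested, 8 above 0 and 8 below, with 0 past the adjusted test by limma and 5 at an unadjusted p under 0.05, where the share over all genes was 13.0%. Bach1, which encodes a repressor of NRF2 target genes, had 10.18 and 10.05 in the sulforaphane arrays, against 9.22 and 9.41 in the DMSO arrays, a difference of 0.80 ± 0.12 (adjusted p 0.0806, limma). The kinase gene Ikbke (-0.77 ± 0.12), the adaptor gene Sla (-0.49 ± 0.11), the cytokine signalling inhibitor gene Socs1 (-0.53 ± 0.13) and the chromatin gene Jarid2 (-0.43 ± 0.14) were lower in both sulforaphane arrays. For miR-146, 7 of 9 names were tested, with 0 past the adjusted test by limma and 1 at an unadjusted p under 0.05, beside the same 13.0% of all genes. That gene, Relb of the NF-κB family, had a difference of -0.37 ± 0.11, and the TLR signalling genes Traf6 (-0.22 ± 0.11), Irak1 (0.06 ± 0.13) and Irak2 (-0.07 ± 0.11) lay nearer to 0. The targets had no common direction.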

How the data were processed

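Total RNA of 4 samples was measured on Affymetrix arrays, 2 per group, after biotin labelling per the labels' protocols. The deposited values are log2 signals per probe set, for which the submitters' processing notes name RMA and R 2.15.1. The base of the logarithm is not written and was taken as 2. RMA corrects background, quantile-normalizes the arrays and summarises probes, so an equal shift of all RNA would be removed. Of 41345 probe sets, 23521 had 1 symbol in the platform annotation, 1814 had several and 16010 were not listed.

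Each gene was read from its brightest probe set. Those whose mean exceeded 2.91, the 40th percentile, were fitted with limma 3.58.1 (lmFit and eBayes, R 4.3.3) with group as the only term and Benjamini-Hochberg adjustment over all 14652 genes, threshold 0.05. The fit had 2 residual and 4.02 prior degrees of freedom, and the procedure was tested on simulated data. With 2 arrays a group, 0.333 is the smallest two-sided p of an exact permutation test, so none was used. The number of arrays limits precision. Errors are moderated SEs. Mir155, listed with a host symbol, was read from a fit of every probe set above the limit, and Mir146, below the limit, from a fit without one, both chosen after seeing the data, as were the counts over genes with both group means above the limit. Positions and sequences come from RefSeq tables of GRCm38.p6, and strands of host genes were known only where a promoter entry gave them.

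Alternatives were a replicate block, each array left out, eBayes with a trend or robust, 2 other limits on the mean, another quantile normalization, median centring, averaged probe sets, and a fit of every probe set. Genes were named by signal, by smallest p among those without overlap (up to 8 per direction), by size of at least 1.5-fold without overlap, and by list. Mir425, Mir191, Mir15a and Mir16-1 were added by hand, as were the shared probe sets of Mir27b and Mir24-1. The members, lists and tests were chosen with earlier results of these data known. Samples with the same replicate number are not stated to share a mouse or culture, and the numbers were not taken as pairs.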

Additional observations from a re-analysis of the deposited data

How the results depend on the processing

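With 2 arrays per group, precision is limited by the arrays, and dim probe sets were the least certain. The number of microRNA genes past the threshold was 0, and it was 2 with means above the 60th percentile, 2 with an intensity trend and 1 after a second quantile normalization. It was 0 under the other alternatives, and the replicate block also gave 0. Same-numbered arrays did not deviate together (r = -0.081 across 14652 genes), so the number was not used as a pairing. The mean limit at the 60th percentile, which tests fewer genes, left 1 gene at least 1.5-fold higher and 2 lower without overlap, against 5 and 4. Leaving out 1 array gave 4 to 16 higher and 7 to 16 lower, a condition that fewer arrays meet more easily. The count of processing genes past the threshold was 0 under every alternative. The median difference of the microRNA genes ran from -0.055 to 0.012 without 1 array. The Mir155 probe set ran from -0.57 to -0.21, and both it and Mir146 have no single-symbol mean of probe sets above the limit, so that alternative was not run for them.

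Of 52 named microRNA genes, among them the shared probe sets of Mir27b and Mir24-1, 35 kept their sign under up to 13 alternatives. The other 17 did not, in each case only when 1 array was left out, and Mir146, below the limit, did not either. The cause was not tested. Many of the 52 were named because their groups did not overlap. Such genes cannot change sign when 1 array is left out, so the count of 35 does not measure stability. With 1 array left out the difference of Mir146 ran from -0.53 to 0.059, that of Mir106b from -0.21 to 0.15, that of Mir150 from -0.51 to 0.36, that of Mir16-1 from -0.36 to 0.096, that of Mir18 from -0.14 to 0.32, that of Mir1938 from -0.087 to 0.36. The difference of Mir19a ran from -0.34 to 0.17, that of Mir212 from -0.72 to 0.085, that of Mir222 from -0.0997 to 0.54, that of Mir342 from -0.098 to 0.0503, that of Mir34a from -0.0027 to 0.39, that of Mir34b from -0.013 to 0.37. The difference of Mir449b ran from -0.0503 to 0.18, that of Mir9-1 from -0.38 to 0.062, that of Mir9-3 from -0.027 to 0.55, that of Mirlet7d from -0.43 to 0.25, that of Mirlet7e from -0.12 to 0.0396, that of Mirlet7i from -0.58 to 0.11.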

Other observations

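A further 136 probe sets listed a microRNA together with other symbols, 75 of them above the limit, and so stood outside the 168 genes. In a limma fit of 24807 probe sets 0 passed the adjusted threshold, and 9 of the 75 had an unadjusted p under 0.05, beside 8.99% of all probe sets. The probe set of Mir22hg, Mir22 and Tlcd2 had 9.11 and 9.10 in the sulforaphane arrays, against 8.03 and 8.43 in the DMSO arrays, a difference of 0.87 ± 0.17 (adjusted p 0.401, limma). That of Chpf2 and Mir671 had 6.73 and 6.92 in the sulforaphane arrays, against 6.26 and 5.98 in the DMSO arrays, a difference of 0.70 ± 0.16. Both stood apart without overlap. These genes were picked after their values were seen.

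A few other shared probe sets, picked by name, are given as values. F630028O10Rik and Mir223, precursor of miR-223, shared a probe set with 11.10 and 10.99 in the sulforaphane arrays, against 10.99 and 11.28 in the DMSO arrays, a difference of -0.09 ± 0.15. That of Vmp1 and Mir21a was at 0.12 ± 0.14 and that of Mir17hg, Mir19b-1 and Mir92-1 at 0.03 ± 0.16, both with overlap. The probe set of AA467197 and Mir147, known as an LPS-induced locus, was at -0.10 ± 0.11, with both sulforaphane arrays below both DMSO arrays. Among the 7 probe sets of Mir466b-2, all but 1 held identical values on every array.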
